A study of Mus musculus and Sus scrofa with 30 samples.

Results

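The genes described here are 9 retinol and retinoic acid handling genes, Rbp4, Rbp5, Rbp7, Crabp1, Crabp2, Aldh1a1, Aldh1a3, Dhrs3 and Retsat, followed in mouse and pig cells on their way to becoming fat cells. They were taken as the rows of each expression table whose gene name equals one of these symbols, ignoring case. All 9 of 9 were listed among the 34307 genes of the pig table, and 7 of 9 among the 24843 genes of the mouse table, which did not list Rbp4 and Rbp5. The set was chosen from earlier results on these same values, so the levels and differences of the 9 genes are given as a description and support no test. A mean of at least 10 normalized counts over the 15 libraries of a table, the minimum used for fitting, was reached by 4 members in the mouse (Crabp2, Aldh1a1, Dhrs3 and Retsat) and by 7 in the pig (all but RBP7 and CRABP1). A member that reached it only through the group where it was high would have had to differ, so the counts below refer to these genes and not to all 9.

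Vitamin A travels in the blood as retinol bound to RBP4, a secreted carrier that fat cells as well as liver make. Inside cells, small fatty acid binding protein relatives (RBP5 and RBP7 among those for retinol, CRABP1 and CRABP2 for retinoic acid) hold these poorly soluble molecules. Retinol is oxidised reversibly to retinaldehyde by dehydrogenases such as RDH10, while DHRS3 reduces retinaldehyde back to retinol. The ALDH1A enzymes then make retinoic acid irreversibly, and CYP26 enzymes degrade it. Retinoic acid acts through RAR and RXR nuclear receptors, and RXR is also the partner of PPARγ, the master regulator of fat cell formation. RETSAT saturates retinol to dihydroretinol and is known as a PPARγ target in fat cells.

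The mouse cells were 3T3-L1, an established line of embryonic fibroblasts that can become adipocytes. Their medium, with 10% serum, held dexamethasone at 75 nM, the phosphodiesterase inhibitor IBMX at 37.5 µM and insulin at 0.75 µg/mL. The pig cells were DFAT cells, fat cells that have lost their lipid and returned to a dividing, fibroblast-like state, whose medium, with 2% serum, held IBMX at 12.5 µM and dexamethasone at 0.5 µM beside biotin and pantothenate. Each system had 5 groups of 3 libraries, taken on day 5, in which the induced cells had received DMSO vehicle, dicoumarol (an anticoagulant that inhibits vitamin K recycling), magnolol (a magnolia bark lignan), dicoumarol and magnolol together (the combination), or rosiglitazone (a synthetic PPARγ agonist). All 5 groups, vehicle included, had the induction mix, and no undifferentiated cells were compared. No source used here gives the dose of any of the 4 treatments. The labels do not say what a replicate number stands for, so the p-values below measure the spread between these libraries, which may be technical.

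Estimated depths, in M reads (mega reads), ranged from 22.8 to 30.7 among 3T3-L1 libraries and from 44.8 to 70.5 among those of DFAT cells. Fat cell markers differed between the treatment groups. The summed level of 8 adipocyte markers (Adipoq, Fabp4, Plin1, Cidec, Lpl, Cebpa, Pparg and Lipe, all listed) ran from 44801 to 62594 in 3T3-L1 vehicle libraries, 62972 to 97118 with dicoumarol, 88913 to 133214 with magnolol, 115802 to 181611 with the combination and 320631 to 565727 with rosiglitazone. Retsat and Aldh1a1, described below, had the same order of group means in 3T3-L1, upward and downward. In limma 0 of 8 adipocyte markers were called higher than vehicle there with dicoumarol, 6 of them at an unadjusted p under 0.05. With magnolol 5 of 8 were called higher. Of all 15723 genes, 0% and 1.23% were called in these contrasts, and 393 and 1579 had an unadjusted p under 0.05. With the combination and with rosiglitazone 8 of 8 were called higher, where 5.22% and 40.1% of all genes were called. In DFAT cells the summed adipocyte markers ran from 17128 to 19949 with vehicle, 20649 to 22079 with dicoumarol and 29575 to 36301 with magnolol. They ran from 47087 to 50599 with the combination and 63746 to 66765 with rosiglitazone. RBP5 and RETSAT, described below, had the same order of group means there, whereas ALDH1A1 was lower with dicoumarol than with magnolol. Of the 8 markers, 5 were called higher than vehicle with dicoumarol and 7 with magnolol in limma, against 1.94% and 4.22% of all genes. All 8 were called higher with the combination and with rosiglitazone, against 10.2% and 10.8%. The 6 fibroblast markers (Col1a1, Col1a2, Col3a1, Pdgfra, Pdgfrb and Vim) summed to 440583 to 487038 with vehicle and 272521 to 346743 with rosiglitazone in 3T3-L1. There they summed to 385718 to 451513 with dicoumarol, 377160 to 448785 with magnolol and 343891 to 400994 with the combination. In DFAT cells they summed to 2639490 to 2783440 with vehicle, 3495700 to 3598410 with dicoumarol, 3932080 to 4476240 with magnolol, 3914340 to 4544020 with the combination and 2172780 to 2300030 with rosiglitazone. Summed macrophage, endothelial, epithelial and muscle markers were at most 102, 236, 7.13 and 155 in any library, with 2 of 4, 3 of 3, 1 of 2 and 1 of 3 of them listed in the mouse and 3 of 4, 3 of 3, 2 of 2 and 3 of 3 in the pig. The DFAT muscle sum differed between groups, from 22.0 to 68.2 with vehicle, 78.0 to 86.5 with dicoumarol, 55.2 to 119 with magnolol, 124 to 155 with the combination and 30.8 to 92.4 with rosiglitazone. It was nearly all desmin (DES), the 1 fitted gene of that list, which limma called higher with the combination than with vehicle (1.81) and lower with rosiglitazone than with the combination (-1.44). MYOD1, which specifies muscle cells, was at 0 in 12 of 15 DFAT libraries and at most 2.01, and MYOG at most 3.16. RBP4, ALDH1A3 and CYP26B1, described below, were also higher with the combination than with vehicle in DFAT cells, as were RBP5, CRABP2 and RETSAT. From vehicle, RBP4 differed by 1.79 with the combination and 1.74 with rosiglitazone, and DES by 1.81 and 0.37, the last not called. The part of these marker shifts in the differences described below was not tested. In bulk RNA, fewer cells of a type and less RNA per cell cannot be told apart.

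Sequences are shown for the promoters of Retsat and Aldh1a1, since Retsat was higher and Aldh1a1 lower than vehicle with rosiglitazone in both systems. The 250 bases before each RefSeq transcription start are printed 5′ to 3′ in the direction of the gene, on the plus strand of GRCm38.p6, chr6:72598352-72598601 for Retsat and chr19:20601718-20601967 for the more downstream of the 2 starts listed for Aldh1a1. Capitals mark a direct repeat of the nuclear receptor motif AGGTCA with 1, 2 or 5 bases between the copies, on either strand, with up to 1 mismatch in each copy.
Retsat: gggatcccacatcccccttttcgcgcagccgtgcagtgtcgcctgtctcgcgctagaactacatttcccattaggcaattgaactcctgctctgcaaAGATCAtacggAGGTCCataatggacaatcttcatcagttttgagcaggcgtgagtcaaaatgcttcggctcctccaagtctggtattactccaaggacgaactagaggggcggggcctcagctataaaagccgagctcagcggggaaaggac
Aldh1a1: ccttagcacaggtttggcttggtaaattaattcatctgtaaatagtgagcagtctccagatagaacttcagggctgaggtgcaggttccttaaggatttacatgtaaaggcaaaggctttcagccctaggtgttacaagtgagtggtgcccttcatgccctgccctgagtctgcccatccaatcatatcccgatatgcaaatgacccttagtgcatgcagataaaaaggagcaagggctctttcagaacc
The Retsat window held 1 such repeat, with 5 bases between its copies and 1 mismatch in each. The Aldh1a1 window held none. A table of 10 starts covered 6 members (Aldh1a1, Crabp1, Dhrs3, Rbp4, Rbp7 and Retsat), and the Retsat repeat was the only match among these 10 windows. None held an exact AGGTCA on either strand. Of all 32851 mouse promoter windows of the same length, 14.0% held an exact AGGTCA, 1.40% a repeat with 5 bases between at up to 1 mismatch per copy, and 4.86% any of the 3 repeats. A match of letters is a description and not a binding site.

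Among the retinol carriers, RBP5 (chromosome 5, 63601134 to 63612191, plus strand, as deposited) was higher with magnolol, with the combination and most of all with rosiglitazone in DFAT cells. This cytosolic retinol binding protein was at 19.4, 22.4 and 17.3 normalized counts in the vehicle libraries and at 32.2, 30.0 and 26.5 with dicoumarol. With magnolol it was at 215, 228 and 198. With the combination the libraries gave 329, 223 and 233, and with rosiglitazone 905, 621 and 793. Every dicoumarol library lay above every vehicle library, the magnolol and combination libraries overlapped each other far above both, and all rosiglitazone libraries stood above the rest. The group means were 19.7 ± 2.56 (SD, n = 3) for vehicle, 29.6 ± 2.84 for dicoumarol, 214 ± 15.4 for magnolol, 262 ± 58.3 for the combination and 773 ± 143 for rosiglitazone. Differences are on the log2(value + 1) scale, where those of genes with few counts are too small. The difference from vehicle was 0.56 ± 0.17 (SE) for dicoumarol, 3.38 ± 0.17 for magnolol, 3.65 ± 0.17 for the combination and 5.21 ± 0.17 for rosiglitazone. The ratio of the rosiglitazone mean to the vehicle mean was 39.2.

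RBP4 (chromosome 14, 105037464 to 105044765, minus strand), the serum retinol carrier, was higher in DFAT cells with the combination and with rosiglitazone. Its values were 8.45, 15.9 and 13.2 with vehicle, 9.75, 18.8 and 13.8 with dicoumarol, and 15.1, 21.9 and 20.0 with magnolol, so these groups overlapped. The combination gave 40.2, 39.6 and 54.8 and rosiglitazone 33.3, 44.5 and 53.0. Both of these groups lay above every vehicle, dicoumarol and magnolol library and overlapped each other. Differences from vehicle were 1.79 ± 0.31 (SE) for the combination and 1.74 ± 0.31 for rosiglitazone on the log2 scale, against 0.16 ± 0.31 for dicoumarol and 0.59 ± 0.31 for magnolol.

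RBP7, a retinol binding protein known from the small vessels of fat and from fat cells, stayed under the minimum in both systems. In 3T3-L1 (chromosome 4, 149534144 to 149539435, minus strand) it was at 2.67, 2.57 and 1.16 with vehicle and 16.8, 6.52 and 11.1 with rosiglitazone. The combination library of replicate 1, at 7.10, was the one library of another group to reach into the rosiglitazone range. In DFAT cells its values ran from 0 to 7.61, the highest being a vehicle library, and the groups overlapped.

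**Figure D1:**
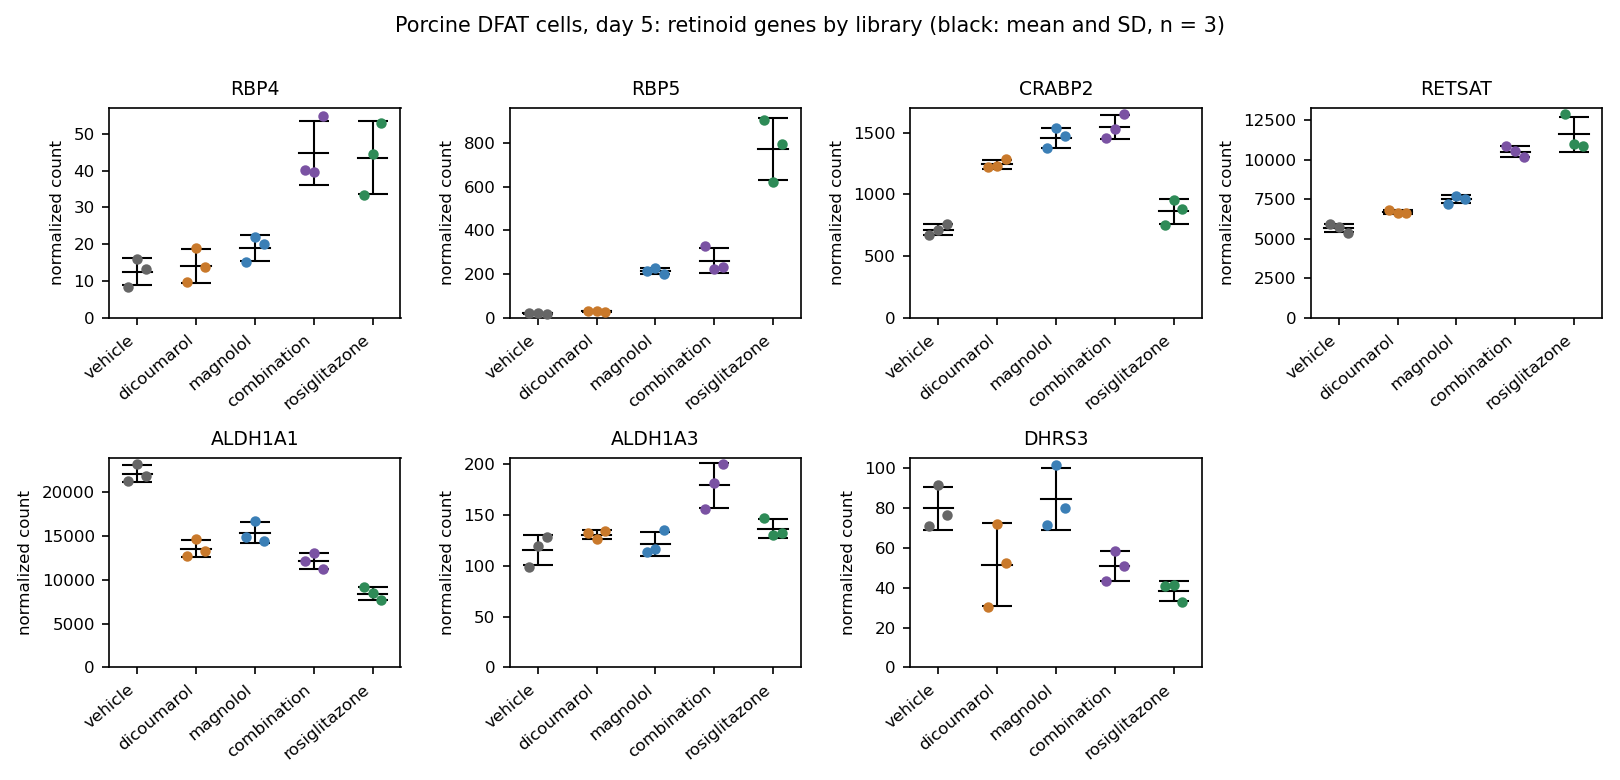
Normalized count (y axis, linear from 0) of the 7 fitted members in each of the 15 DFAT libraries, by treatment (x axis), with 1 panel per gene; coloured points are libraries, black lines the mean and SD of 3. RBP5 and RETSAT are highest with rosiglitazone, ALDH1A1 is lowest there, and CRABP2 is high in the dicoumarol, magnolol and combination groups only.

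Of the retinoic acid carriers, CRABP2 (chromosome 4, 93388092 to 93394155, plus strand, in the pig table), which carries retinoic acid to the nucleus, was higher in DFAT cells with dicoumarol, magnolol and the combination, but overlapped vehicle with rosiglitazone. The vehicle libraries gave 672, 709 and 762 normalized counts and the rosiglitazone libraries 752, 955 and 879, which overlapped. Dicoumarol gave 1223, 1227 and 1289, magnolol 1375, 1537 and 1473, and the combination 1458, 1529 and 1654. Every library of these 3 groups lay above every vehicle and rosiglitazone library, while magnolol and the combination overlapped each other. The log2 difference from vehicle was 0.80 ± 0.08 (SE) for dicoumarol, 1.03 ± 0.08 for magnolol, 1.11 ± 0.08 for the combination and 0.27 ± 0.08 for rosiglitazone. The difference of the combination from the sum of its parts was -0.72 ± 0.12 on the log2 scale. CRABP2 was the member past the threshold in that dicoumarol by magnolol contrast, in which 0.0810% of all DFAT genes (12 of 14819) were called. That call was lost when any 1 of 9 of the 12 libraries involved was left out, without a minimum mean and without the variance trend. The summed fibroblast markers, given above, were likewise higher than with vehicle in these 3 groups and not with rosiglitazone. Of the 6 markers, 4 lay above vehicle by log2 difference in each of these 3 groups, and 1 with rosiglitazone. Called higher in limma were 1 with dicoumarol and 3 with magnolol and with the combination, and 1 was called lower in each. The share of all genes called was 1.94%, 4.22% and 10.2% in these contrasts. The part of the markers in the CRABP2 values was not tested.

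In 3T3-L1 cells Crabp2 (chromosome 3, 87855973 to 87860683, plus strand) was near the minimum, from 7.56 in a combination library to 25.2 in a rosiglitazone library. All 5 groups overlapped. Crabp1, the other cytosolic retinoic acid carrier, was listed at 0 in all 15 3T3-L1 libraries and at no more than 2.55 in DFAT cells. No fold change was computed for it.

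Retsat, the retinol saturase, was the member that stood above vehicle in all 4 treatment groups of both systems. In 3T3-L1 (chromosome 6, 72575458 to 72585408, plus strand) the vehicle libraries were at 1572, 1710.3 and 1529 and the dicoumarol libraries at 2021, 1749.5 and 1988. Magnolol gave 2586, 2514 and 2309.8, the combination 3096, 2665 and 2539.9, and rosiglitazone 5034, 4684 and 4472. The groups were ordered vehicle, dicoumarol, magnolol, combination and rosiglitazone, and magnolol and the combination were the only neighbours in that order that overlapped. Log2 differences from vehicle were 0.26 ± 0.09 (SE), 0.62 ± 0.09, 0.78 ± 0.09 and 1.56 ± 0.09 in that order of treatments.

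In DFAT cells RETSAT (chromosome 3, 59399688 to 59416685, plus strand) gave 5911, 5741 and 5383 with vehicle, 6833, 6623 and 6601 with dicoumarol, and 7214, 7723 and 7502 with magnolol. The combination gave 10839.7, 10546 and 10141 and rosiglitazone 12896, 11017 and 10888. The order of the groups was the same as in 3T3-L1, with no overlap between neighbours, although the lowest rosiglitazone library exceeded the highest combination library only narrowly. Log2 differences from vehicle were 0.24 ± 0.06 (SE) for dicoumarol, 0.40 ± 0.06 for magnolol, 0.89 ± 0.06 for the combination and 1.03 ± 0.06 for rosiglitazone. Whether reads were counted by strand is not given in the sources used here, and genes on the opposite strand overlap both spans. ELMOD3, which overlaps the pig gene, averaged 1623 ± 123 (SD, n = 3) with vehicle and 1357 ± 144 with rosiglitazone, the opposite order to RETSAT. In the mouse the overlapping Gm45053 was at 48.5 ± 1.49 with vehicle and 154 ± 16.2 with rosiglitazone, the same order as Retsat.

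**Figure D2:**
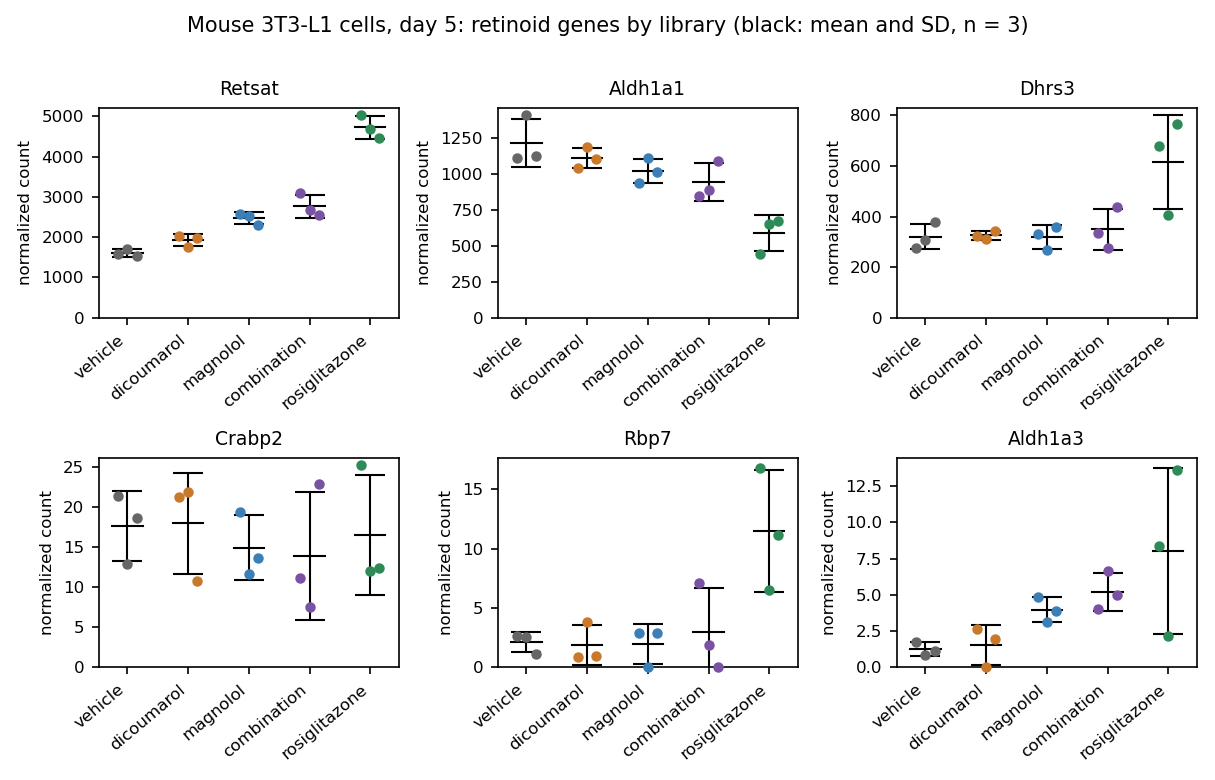
Normalized count (y axis, linear from 0) of 6 members in each of the 15 3T3-L1 libraries, by treatment (x axis); coloured points are libraries, black lines the mean and SD of 3. Retsat is highest and Aldh1a1 lowest with rosiglitazone, Crabp2 overlaps in all groups, and Rbp7 and Aldh1a3 lie under the minimum mean of 10.

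Aldh1a1, which oxidises retinaldehyde to retinoic acid, was lower than vehicle with rosiglitazone in both systems. In DFAT cells (chromosome 1, 226161299 to 226217308, minus strand) it gave 21249, 23148 and 21873 with vehicle, 12702, 14616 and 13291 with dicoumarol, and 14898, 16719.5 and 14441 with magnolol. The combination gave 12122, 13090.1 and 11214 and rosiglitazone 9125, 8438 and 7645. All 12 treated libraries lay below every vehicle library and the rosiglitazone libraries below all others, whereas dicoumarol overlapped both magnolol and the combination. Log2 differences from vehicle were -0.71 ± 0.08 (SE) for dicoumarol, -0.53 ± 0.08 for magnolol, -0.87 ± 0.08 for the combination and -1.40 ± 0.08 for rosiglitazone.

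In 3T3-L1 cells (chromosome 19, 20470079 to 20620829, plus strand) Aldh1a1 was at 1109, 1410.5 and 1126 with vehicle and 441, 652 and 669 with rosiglitazone, which did not overlap any other group. Dicoumarol gave 1041, 1185 and 1105, magnolol 938, 1109.6 and 1015, and the combination 845, 889 and 1091. The means ran down in the order vehicle, dicoumarol, magnolol, combination and rosiglitazone, with overlap between neighbours among the first 4 groups. The combination libraries nevertheless lay below all 3 vehicle libraries. Log2 differences from vehicle were -0.12 ± 0.15 (SE), -0.25 ± 0.15, -0.37 ± 0.15 and -1.06 ± 0.15. The group medians of the summed fibroblast markers in 3T3-L1 ran down in the same order, and their part was not tested. The mouse genome carries a near-identical copy, Aldh1a7, so that reads may be divided between them and both values are uncertain. Aldh1a7 was at 1962 ± 243 (SD, n = 3) with vehicle and 2685 ± 518 with rosiglitazone, higher rather than lower.

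ALDH1A3, a second retinaldehyde dehydrogenase, was highest with the combination in DFAT cells (chromosome 1, 139451049 to 139491511, plus strand). It gave 98.9, 119.5 and 128 with vehicle, 133, 126 and 134 with dicoumarol, 113, 116 and 135 with magnolol, 156, 181 and 200.02 with the combination, and 147, 130.1 and 132 with rosiglitazone. The combination libraries were above all 12 others, at a log2 difference of 0.63 ± 0.13 (SE) from vehicle, and rosiglitazone was at 0.25 ± 0.13 without overlap. The DES values given above were likewise highest with the combination, and their part was not tested. In 3T3-L1 cells Aldh1a3 (chromosome 7, 66040638 to 66077265, minus strand) was under the minimum. It was at 1.78, 0.856 and 1.16 with vehicle, 4.85, 3.16 and 3.91 with magnolol, 4.06, 6.61 and 4.97 with the combination, and 8.39, 2.17 and 13.6 with rosiglitazone. Each of these 3 groups lay above the vehicle libraries at low values.

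Dhrs3, the reductase that returns retinaldehyde to retinol, differed from vehicle in opposite directions in the 2 systems with rosiglitazone. In 3T3-L1 (chromosome 4, 144619397 to 144654779, plus strand) the vehicle libraries were at 277, 309 and 377 and the rosiglitazone libraries at 678, 407 and 764. The other 3 groups, from 267 to 436, overlapped vehicle. In DFAT cells (chromosome 6, 72556236 to 72598815, minus strand) vehicle gave 71.0, 91.5 and 76.4, and rosiglitazone 41.0, 41.1 and 32.6. Dicoumarol spread from 30.2 to 71.9 and magnolol from 71.3 to 101, while the combination, at 43.2, 58.3 and 51.0, lay below every vehicle library. The log2 difference of rosiglitazone from vehicle was 0.90 ± 0.21 (SE) in 3T3-L1 and -1.04 ± 0.25 in DFAT. The DFAT value was no longer past the threshold without vehicle replicate 2 (-0.94) or without rosiglitazone replicate 3 (-0.93). The tables were normalized separately, so the difference between systems was not tested.

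**Figure D3:**
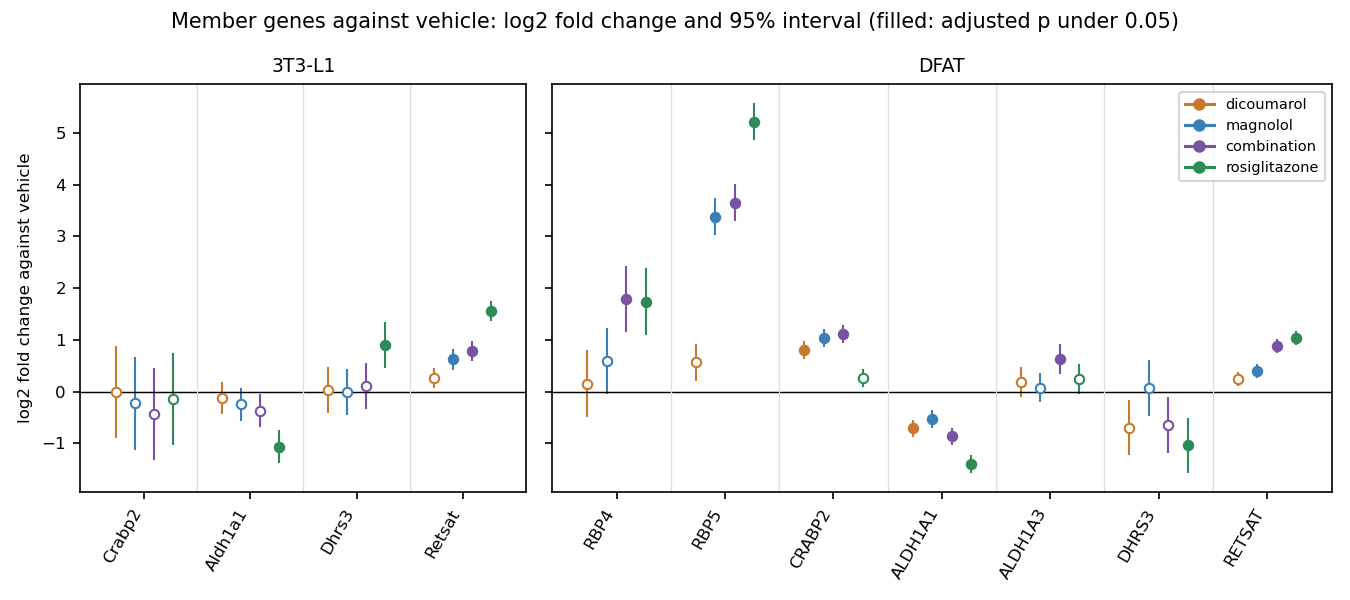
Log2 fold change against vehicle (y axis) of the 4 fitted members in 3T3-L1 (left) and the 7 in DFAT (right), by gene (x axis) and treatment (colour); bars are 95% intervals from limma and filled points have an adjusted p under 0.05. RBP5 reaches 5.21 in DFAT with rosiglitazone, Retsat is above 0 for each treatment in both systems, Aldh1a1 is below 0 throughout, and Dhrs3 lies on opposite sides for rosiglitazone.

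Counting members past an adjusted p of 0.05 in limma (called) gives the following, beside the share of all fitted genes called in the same contrast. With dicoumarol 0 of 4 fitted members were called in 3T3-L1, 1 of them at an unadjusted p under 0.05, where 0% of all genes were called (0 of 15723, and 393 at an unadjusted p under 0.05). With magnolol 1 of 4 (Retsat) was called against 1.23% of all genes, and with the combination 1 of 4 (Retsat) against 5.22%. With rosiglitazone 3 of 4 were called (Retsat and Dhrs3 higher, Aldh1a1 lower) against 40.1%. In DFAT 2 of 7 were called with dicoumarol (CRABP2 higher, ALDH1A1 lower) against 1.94%. With magnolol 4 of 7 were called (RBP5, CRABP2 and RETSAT higher, ALDH1A1 lower) against 4.22%. The combination called 6 of 7, all but DHRS3, with ALDH1A1 the one lower, against 10.2%, and rosiglitazone 5 of 7 (RBP4, RBP5 and RETSAT higher, ALDH1A1 and DHRS3 lower) against 10.8%. Because the genes were selected on these values, nothing is read from these counts. In 3T3-L1 the replicate numbers pair the libraries, and with the replicate block Aldh1a1 was also called in the combination, 2 of 4 members in all, where that fit called 13.5% of all genes.

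The combination was also set against its parts and against rosiglitazone. In 3T3-L1 0 of 4 members were called between the combination and dicoumarol, 1 of them (Retsat, 0.53 ± 0.09) at an unadjusted p under 0.05, where limma called 0.0254% of all genes (1273 of 15723 at an unadjusted p under 0.05). Retsat was called there with the replicate block, which called 3.62% of all genes, and also without combination replicate 2 (0.55). Between the combination and magnolol 0 of 4 were called and 0 had an unadjusted p under 0.05, against 0% of all genes, 336 of which had an unadjusted p under 0.05. Rosiglitazone differed from the combination in 3 of 4 (Aldh1a1 at -0.69 ± 0.15, Dhrs3 at 0.79 ± 0.21 and Retsat at 0.78 ± 0.09), against 18.3%. Dhrs3 overlapped there, and its call was lost without combination replicate 1 or 2 or rosiglitazone replicate 1 or 3, where the difference was 0.61 to 0.77. That call was also lost when only the compared groups were fitted (limma adjusted p = 0.0664).

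In DFAT cells 3 of 7 members (RBP4 at 1.63 ± 0.31, RBP5 at 3.08 ± 0.17 and RETSAT at 0.65 ± 0.06) were called higher in the combination than with dicoumarol, against 2.35% of all genes. Against magnolol 1 of 7 was called, RETSAT at 0.49 ± 0.06, where the share of all genes was 0.621%. Libraries of equal number correlated above 0.1 among the DFAT magnolol, combination and rosiglitazone groups, but not throughout in pairs with vehicle or dicoumarol. The replicate block was shared by all 5 groups, so it also covered groups without such pairing. With the block RBP4 (1.20), ALDH1A3 (0.55) and ALDH1A1 (-0.34) were called against magnolol too, 4 of 7 in all, against 1.96% of all genes. Between rosiglitazone and the combination 3 of 7 were called, RBP5 higher at 1.57 ± 0.17, CRABP2 lower at -0.85 ± 0.08 and ALDH1A1 lower at -0.53 ± 0.08, against 17.0% of all genes. ALDH1A3, at -0.38, was also called there with the replicate block (24.9% of all genes called), without the variance trend and without combination replicate 1 (-0.48). The 95% interval of the RETSAT difference ran from 0.00275 to 0.27 and that of RBP4 from -0.69 to 0.60.

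The rest of the retinoid pathway was followed with 36 other genes listed from general knowledge (uptake, storage, dehydrogenases, degradation and receptors), fitted with limma and Benjamini-Hochberg adjustment over all genes of a table. This list and the second one below were written with earlier results of these data known. Their adjusted p-values are therefore a description and no independent support. In 3T3-L1, 28 were listed and 18 fitted, and with dicoumarol and with magnolol 0 of 18 were called, 1 and 3 of them at an unadjusted p under 0.05. Of all 15723 genes, 0 and 193 were called, and 393 and 1579 had an unadjusted p under 0.05. The combination raised 2 of 18, against 5.22% of all genes. Bco1, which cleaves beta-carotene to retinaldehyde, went from 13.4, 9.41 and 11.6 to 34.5, 21.7 and 21.9 without overlap (1.10 ± 0.28 SE, adjusted p = 0.0304). Rxra, the shared receptor partner, went from 8796, 8177 and 8243 to 12676, 11923 and 11076, again without overlap (0.50 ± 0.10, adjusted p = 0.00899). The Bco1 call was lost without vehicle replicate 2 or 3 or combination replicate 1 or 3 (adjusted p up to 0.189), and the Rxra call without combination replicate 1 (adjusted p = 0.0689). The main fit leaves out the pairing of the 3T3-L1 libraries by replicate number. With the replicate block 3 of 18 were called with magnolol, where that fit called 4.96% of all genes, and 8 of 18 with the combination, where it called 13.5%. Genes called rose with the block from 0 to 79 with dicoumarol, from 193 to 780 with magnolol and from 821 to 2124 with the combination.

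Rosiglitazone changed 11 of 18 pathway genes in 3T3-L1, 8 higher and 3 lower, where 40.1% of all genes were called. The median log2 difference of the 18 was 0.30, against -0.00148 over all genes. Adh1, an alcohol dehydrogenase that acts on retinol, had the largest change, from 376, 249 and 189 to 1405, 1091 and 662 (1.94 ± 0.41 SE, adjusted p = 0.00149). Bco1 rose to 38.8, 34.8 and 44.5 (1.70 ± 0.28, adjusted p = 0.000177). Rdh12, a retinal reductase, rose from 114, 83.9 and 94.2 to 347, 172 and 174 (1.17 ± 0.28, adjusted p = 0.00323). None of these 3 genes overlapped vehicle.
Of the genes on the lower side, Rarg, a retinoic acid receptor, went from 3107, 3305 and 3421 to 1423, 2042 and 1707 (-0.94 ± 0.13, adjusted p = 4.66e-05). Adh7, another alcohol dehydrogenase, fell by 0.53 ± 0.13 (adjusted p = 0.00476). The other 5 that were higher, Rdh11, Rdh13, Dhrs4, Aldh1a7 and Rxra, rose by 0.39 to 0.50, of which Rxra was not called when only the compared groups were fitted (limma adjusted p = 0.0526). The Aldh1a7 groups overlapped, and its limma call (adjusted p = 0.0326) was lost without vehicle replicate 1 or 2 or rosiglitazone replicate 1 or 3 (adjusted p up to 0.153). Against the combination, 3 of 18 were called with rosiglitazone, Rdh13 and Adh1 higher and Rarg lower, a share near the 18.3% of all genes called. With the replicate block 7 of 18 were called, against 33.3% of all genes. The Rdh13 call was lost without any 1 of the 6 libraries (adjusted p up to 0.144), and the Adh1 call without combination replicate 2 or 3 or rosiglitazone replicate 1 or 2 (adjusted p up to 0.195). Against dicoumarol and against magnolol the combination had 0 of 18 calls, with 3 and 1 genes at an unadjusted p under 0.05. Of all 15723 genes, 4 and 0 were called there, and 1273 and 336 had an unadjusted p under 0.05.

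**Figure D4:**
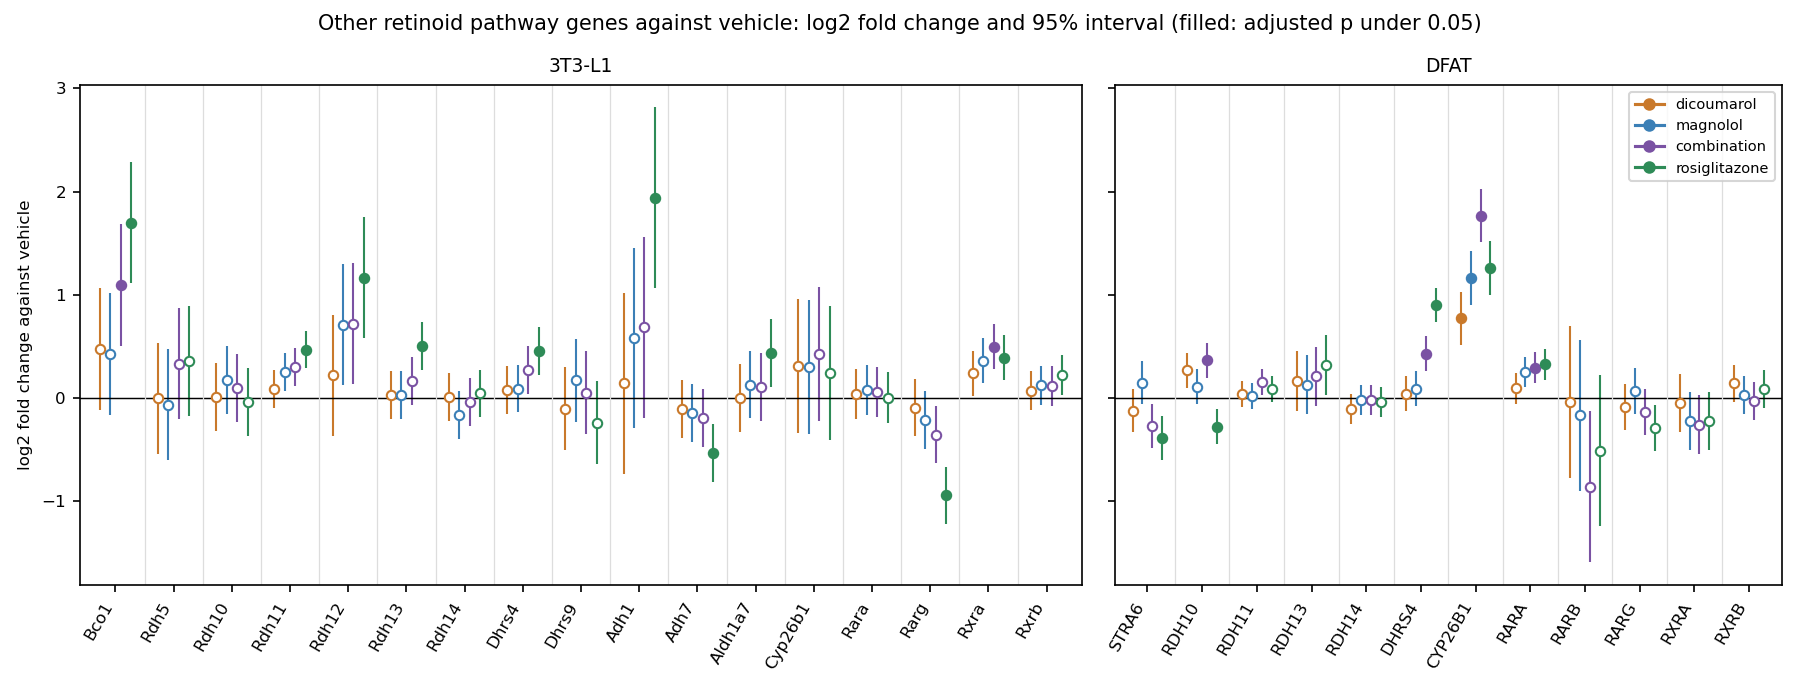
Log2 fold change against vehicle (y axis) of fitted genes of the pathway list in 3T3-L1 (left; 1 of the 18 is not drawn) and DFAT (right, all 12), by gene (x axis) and treatment (colour); bars are 95% intervals from limma and filled points have an adjusted p under 0.05. Most filled points in 3T3-L1 are rosiglitazone, and CYP26B1 is filled for all 4 treatments in DFAT.

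In DFAT cells 30 of the 36 were listed and 12 fitted. CYP26B1, which degrades retinoic acid, was the one pathway gene raised by every treatment. It was at 432, 339 and 381 with vehicle, 673, 597 and 694 with dicoumarol, 777, 789 and 1031 with magnolol, 1280.01, 1129 and 1526 with the combination, and 873, 934 and 945 with rosiglitazone. No treated library overlapped vehicle, and the combination stood above every other group. The limma differences from vehicle were 0.77 ± 0.12 (SE, adjusted p = 0.00178) for dicoumarol, 1.17 ± 0.12 (adjusted p = 1.16e-05) for magnolol, 1.77 ± 0.12 (adjusted p = 2.9e-08) for the combination and 1.26 ± 0.12 (adjusted p = 1.42e-06) for rosiglitazone. In the dicoumarol and magnolol comparisons it was the 1 gene of 12 called, beside 1.94% and 4.22% of all genes.

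With the combination 4 of 12 were called, all higher, against 10.2% of all DFAT genes. Beside CYP26B1 they were DHRS4, a retinal reductase (0.43 ± 0.08 SE, adjusted p = 0.00157), RDH10, the main retinol dehydrogenase (0.36 ± 0.08, adjusted p = 0.00675), and RARA, a retinoic acid receptor (0.30 ± 0.07, adjusted p = 0.0106). With rosiglitazone 5 of 12 were called against 10.8%. The median log2 difference of the 12 was 0.0259, against -0.00569 over all genes. CYP26B1, DHRS4 (0.90 ± 0.08, adjusted p = 4.69e-07) and RARA (0.33 ± 0.07, adjusted p = 0.0045) were higher. STRA6, the cell surface receptor for RBP4 (-0.39 ± 0.10, adjusted p = 0.0164), and RDH10 (-0.28 ± 0.08, adjusted p = 0.0349) were lower. RDH10 thus passed the threshold in opposite directions, at 1202, 1222 and 1409 with the combination, 920, 993 and 1060.04 with vehicle and 814, 841 and 794 with rosiglitazone. The direct difference between rosiglitazone and the combination was -0.64 ± 0.08 (limma adjusted p = 2.7e-05). The STRA6 call was lost without vehicle replicate 2 or rosiglitazone replicate 2 (limma adjusted p up to 0.10). Likewise lost were the RDH10 call with rosiglitazone without any of 4 libraries (vehicle replicate 2 or 3, rosiglitazone replicate 1 or 3; adjusted p up to 0.131), and the RARA call with the combination without vehicle replicate 3 or combination replicate 2 (adjusted p up to 0.0599). Without vehicle replicate 2, 3 of 12 were called with rosiglitazone, in a fit for which the share of all genes called was not computed.

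Between DFAT treatments, 2 of 12 (CYP26B1 at 0.99 and DHRS4 at 0.39) were higher in the combination than with dicoumarol, beside 2.35% of all genes called. DHRS4 was lost there without dicoumarol replicate 2 or 3 or combination replicate 1 (limma adjusted p up to 0.0691). Against magnolol 1 of 12 was called, beside 0.621% of all genes, CYP26B1 at 0.60 ± 0.12 (limma adjusted p = 0.0288), and it was lost without magnolol replicate 1 or 2 or combination replicate 1 or 3 (adjusted p up to 0.177). With the replicate block 3 of 12 were called there, beside 1.96% of all genes. Rosiglitazone differed from the combination in 3 of 12, beside 17.0% of all genes, with DHRS4 higher by 0.47 and RDH10 and CYP26B1 lower. The CYP26B1 difference of -0.51 was no longer called without combination replicate 3 (-0.39, limma adjusted p = 0.0508).

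A second list held 8 genes known to respond to retinoic acid (Cyp26a1, Cyp26b1, Rarb, Stra6, Rarres1, Rarres2, Tgm2 and Nrip1), of which Cyp26a1, Cyp26b1, Rarb and Stra6 are also pathway genes. In 3T3-L1, 4 were fitted, and with dicoumarol, magnolol and the combination 0 of 4 were called, with 0, 2 and 2 at an unadjusted p under 0.05. Of all 15723 genes 0%, 1.23% and 5.22% were called there, and 393, 1579 and 2691 had an unadjusted p under 0.05. With rosiglitazone 1 of 4 was called, where 40.1% of all genes were. This was Rarres2, which encodes the fat cell hormone chemerin. It went from 53.5, 34.2 and 84.4 to 266, 173 and 442 without overlap (2.32 ± 0.48 SE, limma adjusted p = 0.00131). In DFAT 6 were fitted, and CYP26B1 was the 1 called with dicoumarol, magnolol and the combination, beside 1.94%, 4.22% and 10.2% of all genes. With rosiglitazone 3 of 6 were called, beside 10.8% of all genes, CYP26B1 higher and STRA6 and RARRES1 (-0.53 ± 0.17, adjusted p = 0.0469) lower. The RARRES1 call was lost in 5 of 6 fits that left out 1 library, all but the one without vehicle replicate 1 (limma adjusted p up to 0.165). The median difference with rosiglitazone was 0.35 for the 4 in 3T3-L1, against -0.00148 over all genes. In DFAT that of the 6 was -0.24, against -0.01 over all genes. The list thus held calls in both directions in that DFAT comparison.

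The genes most like each member were found by Pearson's correlation of log2(value + 1) over the 15 libraries of a table, which share their treatments, so the coefficients describe a common order of groups. For RBP5 in DFAT they were CLSTN3 (r = 0.982), DGAT2, which makes triglyceride (0.979), and N4BP3 (0.978). For RETSAT they were TRARG1 (0.983), TMEM120B (0.983) and NPR1 (0.978), for CRABP2 SCN2A (0.964), HIP1 (0.959) and the collagen gene COL11A1 (0.957), and for ALDH1A1 ABCC9 (0.965), GALNT11 (0.939) and HEXIM1 (0.933). RBP4, DHRS3 and ALDH1A3 had lower best coefficients, 0.924 with PON2, 0.871 with FAM227B and 0.839 with GALC. In 3T3-L1 the genes most like Aldh1a1 were Rbms3 (0.991), the collagen cross-linking enzyme Lox (0.991) and Ets1 (0.983), and those most like Retsat were Dlc1 (0.993), the sterol synthesis gene Lss (0.988) and Sfxn1 (0.986). Dhrs3 was most like Mob4 (0.960).

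**Figure D5:**
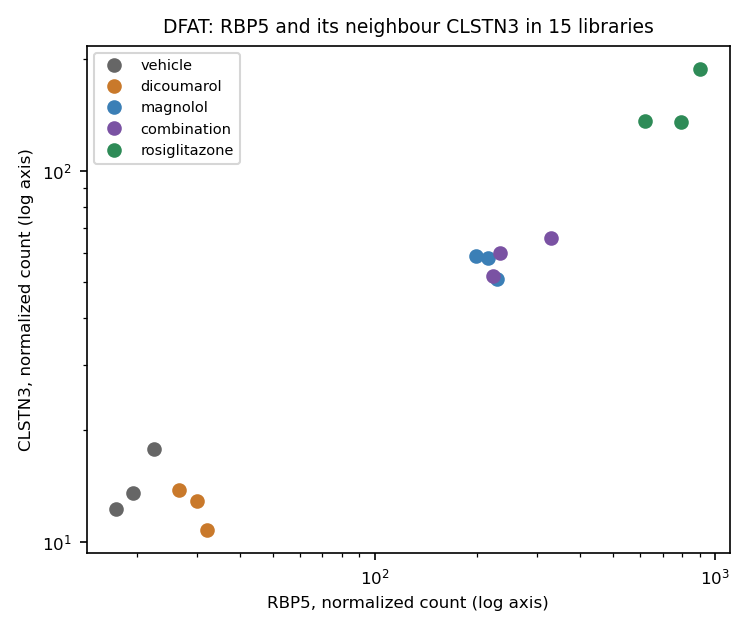
RBP5 (x axis) against CLSTN3 (y axis), both as normalized counts on log axes, in the 15 DFAT libraries coloured by treatment. Vehicle and dicoumarol libraries lie at the lower left, magnolol and combination libraries together in the middle, and the 3 rosiglitazone libraries at the upper right.

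CLSTN3, the first of the genes most like RBP5, is also its neighbour in the pig table. It spans 63572065 to 63599525 on the minus strand of chromosome 5, and 1608 bases separate the 2 genes, which do not overlap and are transcribed away from each other. CLSTN3 was at 13.5, 17.7 and 12.2 with vehicle, 10.7, 12.8 and 13.8 with dicoumarol, 58.2, 51.2 and 58.9 with magnolol, 65.7, 52.1 and 59.9 with the combination, and 188, 136 and 135 with rosiglitazone. Its dicoumarol libraries overlapped vehicle, whereas those of RBP5 did not.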

How the data were processed

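Bulk RNA-seq of poly(A) RNA was analysed in 30 libraries, 15 per system. The signal values were deposited by the authors as 1 table per species of counts per gene after scaling with DESeq2 size factors, per the labels; the submitters' processing notes name bcl2fastq 2.19.1.403, STAR, DESeq2 and GRCm38 for samples of both species, with no role. Of 24070 mouse genes matched to GENCODE M21 (GRCm38), 2.18% had the same start, so table coordinates are as deposited, of a build that was not settled, and RefSeq promoters carry their own. Within 0.02 of a read, 81.7% to 82.8% of low 3T3-L1 values and 89.8% to 91.0% of low DFAT values were whole, so reads were not recovered and no count test was run. Depth was estimated from the value of 1 read.

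Genes with a mean of at least 10 (15723 mouse, 14819 pig) entered a limma fit (version 3.58.1, R 4.3.3) of log2(value + 1). All 5 groups were in 1 model with a variance trend, two-sided, with Benjamini-Hochberg adjustment at 0.05. The tables were fitted separately, and the procedure was tested on simulated data. The simulated libraries were drawn independently, so that test did not cover pairing by replicate number. Deviations from each group's mean correlated above 0.1 between 3T3-L1 libraries of equal replicate number for all 30 pairs across groups (0.106 to 0.462), so the numbers pair them. In DFAT this held among magnolol, combination and rosiglitazone only (lowest 0.105), and 4 of 60 pairs of unlike number also exceeded 0.1 (up to 0.276). The block was shared by all 5 groups, so its DFAT calls rest on a pairing that not all groups showed. Named pathway genes were those called against vehicle, or the 6 with the largest differences; others were named after their values were seen, as were ELMOD3 and Gm45053. For each fitted member the 3 most correlated genes were listed. The members and lists were chosen with earlier results of these data known. Alternatives were the pseudocount (10), the minimum mean (none, 50), quantile normalization, no trend, only the compared groups, the block and leaving out each library; those for the interaction and the responsive list were added after seeing the data. Python 3.11.15 with pandas 2.3.3, numpy 2.4.6 and matplotlib 3.10.9 made tables and plots. Levels were not compared between genes by length, values of 1 pathway gene and 1 correlated gene are not reported here, though counts over the list hold the first, and no protein or pig promoter sequences were used here.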

Additional observations from a re-analysis of the deposited data

Results flagged for a closer look

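CRABP2 in DFAT cells was marked because the effects of dicoumarol with and without magnolol differed, by -0.72 ± 0.12 (SE) on the log2 scale, past the threshold in limma. Of 18 alternatives, replicate block included, 7 kept that call and 11 lost it. CRABP2 was among the members chosen on these same values, so the call is a description and supports no test. Dicoumarol alone was at 0.80 above vehicle, and dicoumarol added to magnolol at 0.08 above magnolol, with overlapping libraries.

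Dhrs3 was marked because with rosiglitazone all 3 3T3-L1 libraries lay above the vehicle mean (0.90) and all 3 DFAT libraries below it (-1.04). Rxra, the common partner receptor, was marked for the same reason with every treatment. Its log2 differences from vehicle in 3T3-L1 were 0.24 for dicoumarol, 0.36 for magnolol, 0.50 for the combination and 0.39 for rosiglitazone, the last 2 past the threshold; the rosiglitazone call was lost with only the compared groups (limma adjusted p = 0.0526). In DFAT they were -0.0439, -0.22, -0.26 and -0.22, none past it. These differences between systems were not tested.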

How the results depend on the processing

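None of the fold changes recomputed changed direction, but this was largely fixed in advance. In groups of equal size the block, the trend, the minimum mean and the choice of groups leave a difference unchanged. Groups without overlap keep their direction when 1 library is left out. Recomputed were only the member differences that were called or without overlap in the main fit, and the pathway and responsive differences called there. The latter could lose a call but not gain one, so the totals below do not describe the whole lists. Over members, 597 of 620 recomputed differences kept their side of the threshold, 16 gained a call and 7 lost one. Over pathway and responsive genes 393 of 453 kept it and 60 lost it. The 3T3-L1 replicate block gave 3 pathway calls with magnolol, 8 with the combination, 7 between rosiglitazone and the combination and 1 between the combination and dicoumarol, and 2 member calls with the combination and 1 between the combination and dicoumarol. In the order of the pathway calls, that fit called 4.96%, 13.5%, 33.3% and 3.62% of all genes. The DFAT replicate block gave 4 member and 2 pathway calls with dicoumarol, 2 pathway calls with magnolol, 8 with rosiglitazone, and 5 member calls between the combination and dicoumarol, where the numbers do not pair the libraries (4.52%, 9.18%, 16.0% and 6.03% of all genes called in these 4 contrasts). It gave 4 member and 3 pathway calls between the combination and magnolol, where libraries of equal number correlated above 0.1 (1.96% of all genes called). The block was shared by all 5 groups in this fit. The replicate block changed no other count of member or pathway calls by over 1.5 times.

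For the fits of this paragraph the share of all genes called was not computed, so nothing about the pathway is read from their counts. Without a minimum mean, pathway calls were 1 in the 3T3-L1 combination, 2 with DFAT magnolol, 4 between the DFAT combination and dicoumarol and 0 between it and magnolol. Only the compared groups gave 1 in the 3T3-L1 combination, 1 between 3T3-L1 rosiglitazone and the combination, 3 with DFAT rosiglitazone and 0 between the DFAT combination and magnolol. A minimum mean of 50 gave 2 with DFAT magnolol, quantile normalization 2 there and 2 between the DFAT combination and magnolol, and no variance trend 0 there. Leaving out each library gave 0 to 2 pathway calls in the 3T3-L1 combination, 1 to 3 between 3T3-L1 rosiglitazone and the combination, 3 to 5 with DFAT rosiglitazone, 1 to 2 between the DFAT combination and dicoumarol and 0 to 1 between it and magnolol, and 0 to 1 member calls between the 3T3-L1 combination and dicoumarol. The CRABP2 interaction of -0.72 was not past the threshold without a minimum mean (adjusted p = 0.104) and without the trend (adjusted p = 0.136), and ran from -0.77 to -0.68 with 1 library left out. The cause was not tested. Genes under the minimum mean, such as Rbp7 and Aldh1a3 in 3T3-L1, rest on few reads.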

Other observations

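Pathway genes under the minimum mean also had values that sorted by treatment; they were picked out after their values were seen and were not tested. In 3T3-L1 Rdh16, a retinol dehydrogenase, was at 0, 0 and 1.16 with vehicle and 17.8, 10.9 and 14.8 with rosiglitazone. Rxrg, the third RXR receptor gene, was at 0.891, 0 and 0 with vehicle and 7.34, 7.61 and 12.3 with rosiglitazone, but was listed at 0 in all DFAT libraries. In DFAT cells RDH5, another retinol dehydrogenase, was at 0, 0 and 2.04 with vehicle, 19.6, 11.5 and 20.4 with the combination and 15.4, 12.8 and 14.3 with rosiglitazone.

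Clstn3, the mouse counterpart by name of the neighbour of pig RBP5, was at 10.7, 0.856 and 9.30 with vehicle and 52.4, 25.01 and 76.6 with rosiglitazone in 3T3-L1 cells, whose table does not list Rbp5.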
